A study of Mus musculus with 8 samples.

Results

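A set of 9 genes that mark the primitive streak and the axial progenitors of the embryo (T, Mixl1, Eomes, Evx1, 5730457N03Rik, Nkx1-2, Mesp1, Gsc and Lhx1) was followed in laser-dissected neural tube tissue of mouse embryos of diabetic mothers. They were taken as a list of gene symbols out of 26608 symbols in the count files, and all 9 were found. The protrusions were outgrowths of the open neural plate of FVB embryos at embryonic day 8.5, and the labels give 1 of them as separated (protrusion 1) and 3 as attached (protrusions 2, 3 and 4). The open neural tubes were 4 samples of normally shaped tissue cut immediately in front of closure site 1, the place at which the folds first meet, in FVB embryos of that age (open neural tubes 9, 10, 13 and 14). All 8 samples came from embryos of diabetic dams, so maternal diabetes is shared by both groups. The sources used here give neither the way diabetes arose nor the axial level of the protrusions, so axial position and protrusion cannot be told apart. The study's title asks about gastrulation in such pregnancies, which is when these genes are normally active. The RNA input was 7 to 12 ng per library. No label states that each library is a different embryo, and protrusions 1 and 2 have titles with the same beginning. The p-values therefore speak of the spread among these libraries, part of which may be technical.

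The primitive streak is the region of the gastrulating embryo through which epiblast cells move inward to become mesoderm and endoderm. Nodal, Wnt and FGF signals switch on its transcription factors, among them the T-box factors T (Brachyury) and Eomes and the homeobox factors Mixl1, Evx1, Gsc and Lhx1, and Mesp1 marks the earliest mesoderm that leaves it. As the streak regresses, T and Nkx1-2 stay on in the caudal progenitors that lengthen the trunk, while the anterior neural plate, from which the neural tube closes, does not normally use these genes.

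Levels were measured by SAGE, which counts a short tag beside the last recognition site (CATG) of a restriction enzyme near the 3′ end of each transcript, and are given as counts per 1000000 reads (CPM), which need no scaling by gene length. The tag beside the last CATG with 27 bases of annotated transcript after its start is shown here for the members whose counts the results turn on, with CATG in capitals. The tags were found in GENCODE M21 transcripts on GRCm38 by the match made here. The submitters' processing notes name build mm9 and the count files list no tags, so which tag each count rests on was not tested.
T, chr17:8442363-8442389, plus strand, 3′ UTR: CATGcctactttaagcacacgtagctt
Mixl1, chr1:180693131-180693157, minus strand, 3′ UTR: CATGgtggatgggagaacgggtttctt
5730457N03Rik, chr6:52308471-52308497, minus strand, noncoding exon: CATGtgcaggccactggtacctgaaag
Mesp1, chr7:79792379-79792405, minus strand, 3′ UTR: CATGggcatcccggggtgggagctggc
Evx1, chr6:52317563-52317589, plus strand, 3′ UTR: CATGgcagggggcttgttgatggcaac
Eomes, chr9:118485360-118485386, plus strand, 3′ UTR: CATGacagaaaaaaacaaaacaaaaca
Gsc, chr12:104472168-104472194, minus strand, coding exon: CATGaacgtgggcacgctgtcgcgcac
None of these tags was the last tag of another annotated gene, and the tag of Eomes held 19 A among its 27 bases. In T, Mixl1 and Mesp1 the tag shown stands beside the last CATG of the longest transcript. In Gsc, Evx1 and 5730457N03Rik the last CATG lay 4, 19 and 6 bases from the annotated end, CATG included, so a tag there would run into the poly(A) tail. The tags shown for these 3 genes lie 636, 797 and 103 bases further upstream. A last site this close to the end was found in 7.67% of 21877 protein-coding genes, and its part in the counts of the 3 genes was not tested. Tags of the genes named below that are not members were not looked up. A lack of reads for such a gene therefore need not mean that its RNA was absent.

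The total count ranged from 6112477 to 11430602 reads in protrusions and from 5668054 to 16655583 reads in open neural tubes. A level of 3 reads, taken as the floor below which a transcript was not detectable at this depth, stood for 0.262 to 0.491 CPM in the protrusions and 0.180 to 0.529 CPM in open neural tubes. Such floors cover counting error only, since copies made by PCR are not separate molecules. With all libraries thinned to 5668054 reads, 14393 to 15515 genes had at least 1 read in protrusions and 9920 to 11250 in open neural tubes. Of 3280 genes with a mean of 5 to 20 CPM over all libraries, 0.0915% to 0.549% were at 0 in a protrusion and 4.85% to 18.8% in an open neural tube. Nkx1-2, Lhx1 and Mesp1 averaged 1.08, 1.89 and 3.73 CPM over all libraries. Among genes averaging between 1 and 5 CPM, each protrusion lacked reads for 2.50% to 8.18% and each open neural tube for 34.7% to 56.8%. The part of this gap in the results was not tested. In bulk tissue, fewer cells of a type and less RNA per cell cannot be told apart.

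Most of the 9 genes stood higher in protrusions than in open neural tubes. In 6 of the 9 (T, Mixl1, Eomes, 5730457N03Rik, Nkx1-2 and Mesp1) every protrusion lay above every open neural tube, though for Eomes by 2 to 8 reads against 0, a separation found in 10% of the 18121 genes with at least 1 read and in 8.84% of the 11036 tested. Evx1, Gsc and Lhx1 overlapped between the groups. Of the 9 genes, 3 passed the low-count filter of the test, and 1 of them, 5730457N03Rik, rose in protrusions in edgeR's quasi-likelihood test over 11036 genes, where 0.607% of genes changed and 0.281% rose. The 3 genes passed that filter through their reads in protrusions, as did the 4 that passed it with the separated protrusion left out. With the separated protrusion left out, 4 of the 9 passed the filter and 3 rose: T, Mixl1 and 5730457N03Rik, beside 0.759% of 11466 genes that rose and 1.5% that changed.

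**Figure D1:**
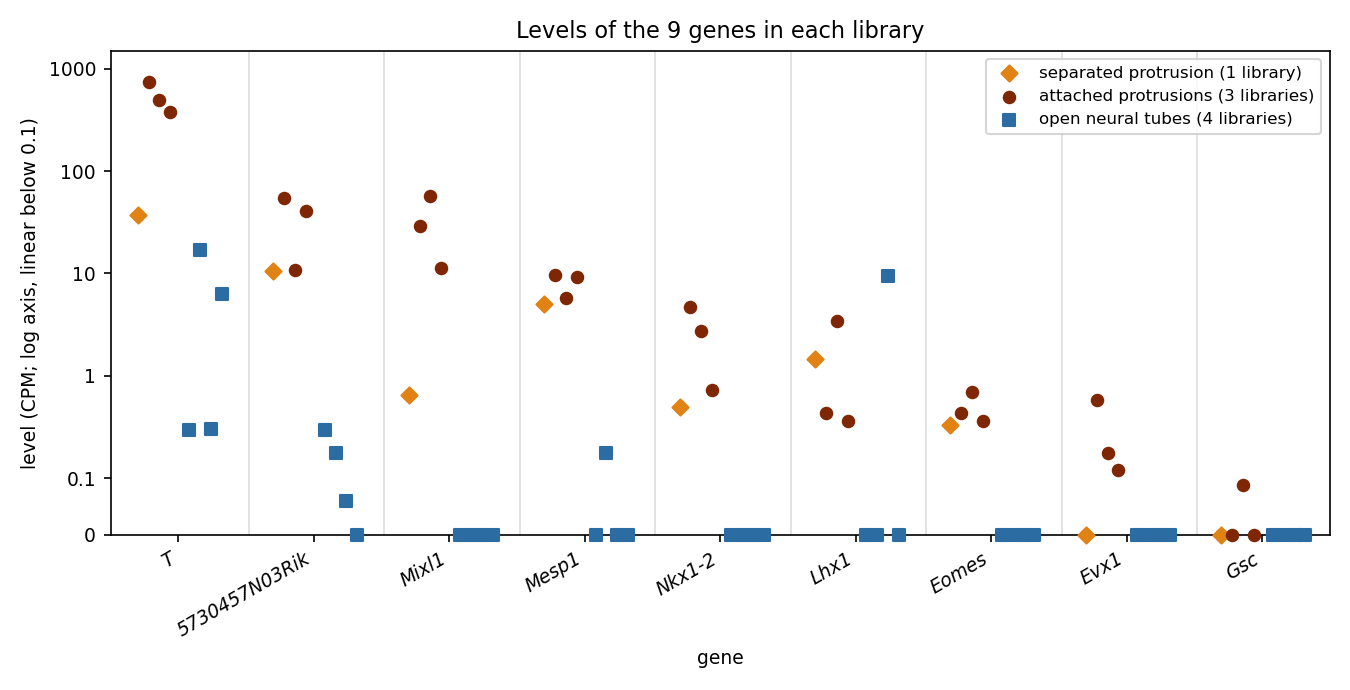
Level of each gene in CPM (vertical log axis, linear below 0.1) in the separated protrusion (orange diamonds), the 3 attached protrusions (brown circles) and the 4 open neural tubes (blue squares), 1 point per library. T ranged from 36.8 to 737 CPM in the protrusions and from 0.296 to 16.9 CPM in open neural tubes, while Mixl1, Eomes, Evx1, Nkx1-2 and Gsc were at 0 in all 4 open neural tubes.

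T, the T-box factor that streak cells and caudal progenitors need to form mesoderm, was the most abundant of the 9 genes in every protrusion. It stood at 36.8 CPM in separated protrusion 1, and at 737, 498 and 379 CPM in the attached protrusions 2, 3 and 4, against 0.296, 16.9, 0.300 and 6.33 CPM in open neural tubes 9, 10, 13 and 14. All 4 protrusions were above all 4 open neural tubes, the separated protrusion by the smallest margin, about 2.17 times open neural tube 10. The means were 413 ± 292 CPM in the protrusions and 5.97 ± 7.85 CPM in open neural tubes (SD, n = 4 each). With all 8 libraries the log2 fold change was 6.15 ± 1.32 (SE), with an adjusted p of 0.0698 in edgeR, which did not pass the threshold of 0.05. DESeq2 called T higher (adjusted p = 6.32e-06) and limma-voom did not (0.279). Without open neural tube 10, the highest of its group, the edgeR log2 fold change was 7.53 and did not pass (adjusted p = 0.0827). In the attached protrusions T averaged 538 ± 182 CPM (SD, n = 3), and it rose by 6.54 ± 1.20 on the log2 scale against the open neural tubes (edgeR adjusted p = 0.0396). The call in attached protrusions was lost when protrusion 2, 3 or 4 or open neural tube 9 or 14 was left out (adjusted p = 0.0810 to 0.130 in edgeR), and without a low-count filter (0.122). Without open neural tube 10 the log2 fold change of the attached protrusions was 7.88.

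The 250 bases before the start of T and the first 30 after it are shown because T and Mesp1 are the members whose windows hold the searched motif of the Wnt effectors TCF and LEF, CTTTGAA on either strand. The sequences are from RefSeq on GRCm38.p6, a C57BL/6J reference and not FVB, 5′ to 3′ along each gene's strand, with matches in capitals.
T promoter, chr17:8434173-8434452, plus strand: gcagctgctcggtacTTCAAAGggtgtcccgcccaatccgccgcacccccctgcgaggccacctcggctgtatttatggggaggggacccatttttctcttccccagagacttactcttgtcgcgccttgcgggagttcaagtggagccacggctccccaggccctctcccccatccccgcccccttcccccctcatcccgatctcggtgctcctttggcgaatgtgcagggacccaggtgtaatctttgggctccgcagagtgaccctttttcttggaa
Mesp1 promoter, chr7:79793561-79793840, minus strand: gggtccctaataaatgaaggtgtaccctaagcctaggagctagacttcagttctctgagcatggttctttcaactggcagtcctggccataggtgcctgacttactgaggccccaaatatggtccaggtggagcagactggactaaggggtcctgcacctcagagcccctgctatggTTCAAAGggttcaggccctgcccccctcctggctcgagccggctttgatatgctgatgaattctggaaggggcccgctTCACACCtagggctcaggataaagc
The match in T starts 235 bases before the RefSeq start and that in Mesp1 73 bases before it, each read as TTCAAAG on the gene's strand. Mesp1 also holds TCACACC, the searched T-box core, 5 bases after the first base of the gene in RefSeq. For T the GENCODE M21 gene starts at the same base, chr17:8434423. For Mesp1 it starts further upstream, at chr7:79793788, so both Mesp1 matches lie inside that annotated gene. Which start is used in this tissue was not tested. The motif CTTTGAA was found on either strand in 2 of the 8 members with a window and in 5.14% of 32851 windows of the same 300 bases, and TCACACC in 1 of the 8 and in 3.98%. The 2 motifs do not overlap each other, and a match is a description of the letters.

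Mixl1, a homeobox factor of the streak that is needed for endoderm and for orderly mesoderm, was at 0 reads in all 4 open neural tubes. It stood at 0.654 CPM (4 reads) in separated protrusion 1, and at 29.1, 57.7 and 11.2 CPM in attached protrusions 2, 3 and 4. Every attached protrusion was thus above the separated one, and the separated one was close to the floor of 3 reads. The mean was 24.7 ± 24.9 CPM in protrusions (SD, n = 4), at least 46.6-fold higher than the largest floor of an open neural tube library. Of 9012 genes with a mean of 5 CPM or more in protrusions, 0.433% were at 0 in all 4 open neural tubes. Over all 8 libraries Mixl1 did not pass the low-count filter (without that filter its edgeR adjusted p was 0.0298, and 0.232% of genes rose). An exact permutation test of its CPM gave a 2-sided p of 0.0286, the smallest that 4 against 4 libraries allow. Against the open neural tubes it rose in the attached protrusions (edgeR adjusted p = 0.0252), where it passed the filter through their reads alone. That call was lost when protrusion 2, 3 or 4 or open neural tube 9 or 14 was left out (adjusted p up to 0.141).

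Eomes, the T-box factor that acts with Nodal signals at the start of gastrulation, had few reads in every protrusion. It had 2 reads in the separated protrusion and 3, 8 and 3 reads in attached protrusions 2, 3 and 4, against 0 reads in each open neural tube. The mean of 0.454 ± 0.169 CPM in protrusions (SD, n = 4) lies below the largest floor in open neural tubes, so no fold is given. The separated protrusion was under the floor of 3 reads, and the levels of protrusions 1, 2 and 4 lay below the floor of open neural tube 10, so a difference was not detectable at this depth, at 16 reads in all. An exact permutation test gave a 2-sided p of 0.0286, which follows from the lack of overlap alone and adds nothing to it. Eomes did not pass in edgeR without a low-count filter (adjusted p = 0.121) or in DESeq2 (0.211). Mixl1, which acts in the same early streak, had 959 reads in protrusions.

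Gsc and Lhx1, homeobox factors of the anterior streak, the node and its axial mesoderm, were scarcely seen in protrusions. Gsc had 1 read in all 8 libraries, in protrusion 3 (0.0875 CPM). Lhx1 stood at 1.47 CPM in separated protrusion 1, and at 0.430, 3.41 and 0.361 CPM in attached protrusions 2, 3 and 4, against 0, 0, 9.43 and 0 CPM in open neural tubes 9, 10, 13 and 14. Its highest library was thus open neural tube 13, with 157 reads, and the groups overlapped (exact permutation test, 2-sided p = 1). An exact permutation test of Gsc gave the same p of 1.

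Open neural tube 13, which held all reads of Lhx1 among the open neural tubes, also stood apart in genes of other mesoderm. Gata4 and Hand1, of heart and lateral mesoderm, stood at 87.7 and 69.6 CPM there, against at most 0.176 CPM in the others. Of the other listed heart and vessel genes, Isl1, Mef2c, Myl7 and Etv2 were also highest there among open neural tubes. Hand2, Nkx2-5, Tbx5 and Kdr did not follow, at 0 in all 4 open neural tubes. Osr1, of intermediate mesoderm, which also uses Lhx1, stood at 12.8 CPM in open neural tube 13 against 0 in the others. Pax2, another intermediate mesoderm gene, did not follow, at 0 in all 4 open neural tubes and in separated protrusion 1 and at 2.15, 0.700 and 2.04 CPM in attached protrusions 2, 3 and 4. The summed level of 4 intermediate mesoderm genes was 0 to 4.88 CPM in protrusions, 17.3 CPM in open neural tube 13 and 0 in the other 3 open neural tubes, with Pax8 at 0 in all 8 libraries. The same library had the lowest summed level of 12 neural tube markers, 246 CPM, against 1055 to 1693 CPM in the other open neural tubes. The part of such tissue in the level of Lhx1 was not tested, and these genes were picked from their lists after their values were seen.

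Mesp1, the bHLH factor of the first mesoderm to leave the streak, including that of the heart, was the most even across protrusions of the 7 genes with reads in all 4. It stood at 5.07 CPM in separated protrusion 1, and at 9.75, 5.69 and 9.13 CPM in attached protrusions 2, 3 and 4, against 0, 0.176, 0 and 0 CPM in open neural tubes 9, 10, 13 and 14. The highest protrusion was 1.92 times the lowest, where that ratio was 88.1 for Mixl1. The 1 read in open neural tube 10 was the sole read of Mesp1 in its group. Among genes averaging between 1 and 5 CPM, as Mesp1 did, each open neural tube lacked reads for 34.7% to 56.8%. The part of this in the difference for Mesp1 was not tested. The log2 fold change was 7.33 ± 1.54 (SE) with an adjusted p of 0.0639 in edgeR, which did not pass, and 0.0717 with the attached protrusions alone. Without open neural tube 10, which held that read, the log2 fold change was 9.16 (edgeR adjusted p = 0.0766). DESeq2 (adjusted p = 3.29e-08) and limma-voom (0.0197) called it higher, in tests that called 6.57% and 2.07% of genes higher. Its neighbour Mesp2, a paralog that patterns the presomitic mesoderm, stood at 25.7 CPM in separated protrusion 1, and at 41.0, 21.8 and 42.2 CPM in the attached ones, against 0, 0, 3.48 and 0 CPM in the open neural tubes (log2 change 4.98, edgeR adjusted p = 0.107).

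Genes that act after Mesp1 and Eomes in heart and vessel mesoderm were low in protrusions. Of 10 listed genes 2 passed the low-count filter and 0 passed the edgeR test, at an unadjusted p under 0.05, in DESeq2 or in limma-voom. Their summed level was 10.96 CPM in the separated protrusion, 7.89 to 17.8 CPM in the attached ones and 0 to 206 CPM in open neural tubes, the highest being open neural tube 13. Hand2 and Nkx2-5, a cardiac homeobox factor, were at 0 reads in all 8 libraries. Mef2c stood at 5.54 ± 1.47 CPM in the protrusions and 4.14 ± 7.14 CPM in open neural tubes, and the atrial myosin light chain Myl7 at 4.64 ± 4.38 and 4.89 ± 6.51 CPM (SD, n = 4 each).

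5730457N03Rik, now named Evx1os, is a noncoding RNA antisense to Evx1, a homeobox factor of the posterior streak. It stood at 10.5 CPM in separated protrusion 1, and at 54.8, 10.8 and 40.6 CPM in attached protrusions 2, 3 and 4, against 0.296, 0.176, 0.0600 and 0 CPM in open neural tubes 9, 10, 13 and 14. All protrusions were above all open neural tubes, and the separated protrusion and protrusion 3 were nearly alike. It averaged 29.2 ± 22.2 CPM in the protrusions and 0.133 ± 0.131 CPM in open neural tubes (SD, n = 4 each), and rose by 7.63 ± 1.05 on the log2 scale (SE; edgeR adjusted p = 0.0177). The call held in all 6 other settings of normalization, filter and tool (adjusted p up to 0.0404) and was lost when protrusion 2 or 4 or open neural tube 9, 10 or 14 was left out (adjusted p up to 0.101). Without open neural tube 9 the log2 fold change was 8.49. It held without the separated protrusion, with a log2 fold change of 7.92 ± 1.04 (SE) and an adjusted p of 0.0163 in edgeR. That call in attached protrusions was lost when protrusion 2 or 4 or open neural tube 9 or 14 was left out (edgeR adjusted p = 0.0529 to 0.111).

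Evx1 itself had 0 reads in the separated protrusion and 4, 2 and 1 reads in attached protrusions 2, 3 and 4, against 0 in each open neural tube (exact permutation test, 2-sided p = 0.143). Over the 4 protrusions the antisense RNA had 908 reads and Evx1 had 7. The 2 genes overlap over 1335 bases, chr6:52313498-52314832 on GRCm38, and the sources used here do not say whether counting used strand, so reads from that stretch cannot be assigned to either gene with certainty. The tags shown above, at chr6:52308471-52308497 for the antisense RNA and chr6:52317563-52317589 for Evx1, both lie outside the overlap.

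Nkx1-2, a homeobox factor of the caudal progenitors that give rise to spinal cord and paraxial mesoderm, was low in protrusions. It had 0.491 CPM (3 reads) in the separated protrusion and 4.73, 2.71 and 0.721 CPM in attached protrusions 2, 3 and 4, against 0 in each open neural tube. Its order across protrusions, 2 above 3 above 4 above 1, was that of T. The mean of 2.16 ± 1.98 CPM in protrusions (SD, n = 4) was at least 4.09-fold higher than the largest floor of an open neural tube library. The separated protrusion lay below the floor of open neural tube 10, 0.529 CPM. The groups did not overlap (exact permutation test, 2-sided p = 0.0286). Every gene without overlap between 4 and 4 libraries gets this p, so it adds nothing to the lack of overlap. Nkx1-2 did not pass the low-count filter, and without that filter its edgeR adjusted p was 0.119, above the threshold. DESeq2 called it higher (adjusted p = 0.00396), in a test that called 6.57% of genes higher. Mixl1, Eomes and Nkx1-2 shared the pattern of 0 reads in all open neural tubes and reads in all protrusions, which 4.23% of the 18121 genes showed.

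Set against T in the same library, the other genes varied between protrusions, with no test because the separated form has 1 library. In attached protrusions 2, 3 and 4 the level of 5730457N03Rik was 7.43%, 2.18% and 10.7% of that of T, against 28.4% in the separated one. Mixl1 was at 3.95%, 11.6% and 2.95% of T in attached protrusions 2, 3 and 4, against 1.78% in the separated one. Protrusion 3 thus had the most Mixl1 and the least antisense RNA relative to T. Mesp1 was at 1.32%, 1.14% and 2.41% of T in the attached protrusions, against 13.8% in the separated one. T made up 85.9% to 88.1% of the summed level of the 9 genes in attached protrusions and 66.6% in the separated one.

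**Figure D2:**
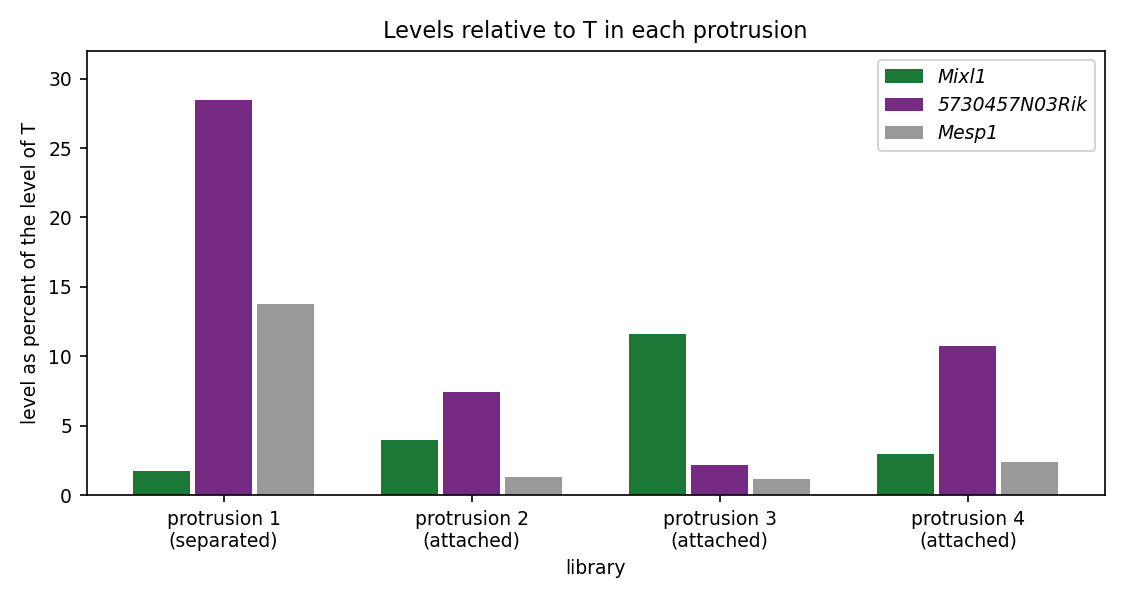
Level of Mixl1 (green), 5730457N03Rik (purple) and Mesp1 (grey) as a percent of the level of T in the same library (vertical axis), for the separated protrusion and the 3 attached ones, 1 bar per library. In the separated protrusion 5730457N03Rik reached 28.4% of T, and in protrusion 3 Mixl1 was the highest of the 3 genes at 11.6%.

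The attached mean was 14.6 times the separated value for T and 49.9 times for Mixl1, but 3.38 times for 5730457N03Rik, 1.61 times for Mesp1 and 0.951 times for Lhx1. A gap of at least 10 times, as for T, was found in 2.56% of the 8840 tested genes with a mean of 5 CPM or more. Of 12 neural tube markers, 8 stood higher in the separated protrusion than in every attached one. Sox1, a factor of early neural plate, stood at 4.01, 6.12 and 6.85 CPM in attached protrusions 2, 3 and 4 and at 108 CPM in the separated one. Sox3, another factor of neural progenitors, went the other way, at 23.9, 50.7 and 35.5 CPM in the attached protrusions and 0 in the separated one, and Ncam1, Cdh2 and Olig3 lay within or below the attached range. The summed level of the 12 neural tube markers was 520 to 940 CPM in attached protrusions and 1330 CPM in the separated one. The part of neural tissue in the lower T of the separated protrusion was not tested, and Sox1, Cdh2 and Olig3 were singled out after their values were seen.

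Within the open neural tubes, T had reads in all 4 libraries, 96 and 53 in samples 10 and 14 and 3 and 5, at or near the floor, in samples 9 and 13. Shh, the signal of notochord and floor plate, stood at 12.0 and 4.54 CPM in open neural tubes 10 and 14 and at 0 in 9 and 13. Chrd, a BMP inhibitor of node and notochord, stood at 11.8 and 18.1 CPM in 10 and 14 and at 0 in 9 and 13. T, Shh and Chrd were thus highest in the same 2 libraries, and none of the other 7 genes of the node and notochord list was present in both and at 0 in both others. Noto, a node and notochord factor, was at 0 in all 4 open neural tubes. Foxj1 stood at 12.6, 37.9, 0 and 0 CPM and Foxa2, present in all 4, at 12.1, 14.6, 7.69 and 16.6 CPM in open neural tubes 9, 10, 13 and 14. The BMP inhibitor Nog stood at 14.02, 12.5, 4.26 and 3.22 CPM, Foxa1 at 0, 3.70, 8.23 and 0 CPM and Dkk1 at 34.7, 4.41, 23.7 and 19.8 CPM in the same order. The part of notochord in the T of open neural tubes was not tested, and Shh and Chrd were singled out after their values were seen.

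None of the tested genes of node and notochord, which also use T, passed in protrusions. Of 9 listed genes 7 were tested and 0 passed in edgeR, at an unadjusted p under 0.05, in DESeq2 or in limma-voom, with a median log2 fold change of 0.50, against 0.08 over all genes tested. Their summed level was 47.4 CPM in the separated protrusion, 88.8 to 397 CPM in the attached ones and 47.9 to 100.4 CPM in open neural tubes. Foxj1, the factor of motile cilia such as those of the node, made most of the upper end with 284 CPM in protrusion 3, against 2.62, 13.3 and 8.05 CPM in protrusions 1, 2 and 4 and 0 to 37.9 CPM in open neural tubes (edgeR adjusted p = 0.588). Noto was also highest in protrusion 3, at 6.56 CPM, as were Mixl1, Eomes, Gsc (by 1 read) and, among protrusions, Lhx1. Chrd and Dkk1 were also highest among protrusions there. Shh, Foxa2 and Nog were highest among protrusions in protrusion 2, Foxa1 in protrusion 4 and Cer1 in protrusion 1. Protrusion 3 had the largest total count of the protrusions, 11430602 reads. Dkk1, a Wnt inhibitor, stood at 34.6 ± 9.23 CPM in the protrusions and 20.7 ± 12.5 CPM in open neural tubes (SD, n = 4 each, edgeR adjusted p = 0.661).

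**Figure D3:**
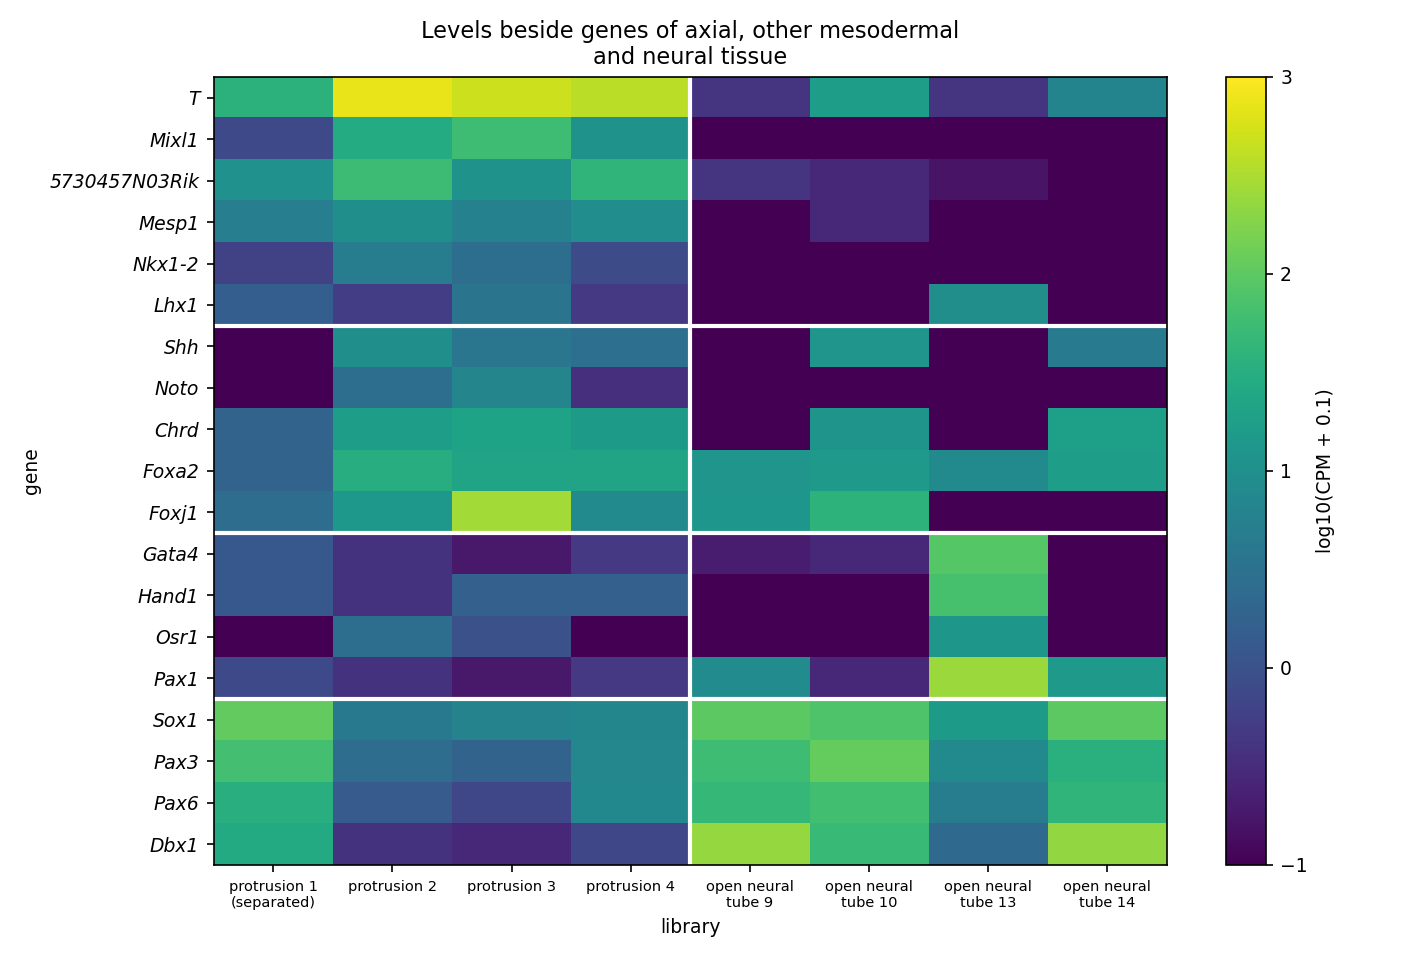
Level as log10(CPM + 0.1) (colour) of 6 of the 9 genes (top block), of genes of axial mesoderm (second block), of other mesoderm (below it) and of the neural tube (bottom block), in 4 protrusions and 4 open neural tubes. Open neural tube 13 stands out in Lhx1, Gata4, Hand1 and Pax1, T, Shh and Chrd are highest among open neural tubes in 10 and 14, and the separated protrusion holds Sox1, Pax3 and Pax6.

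Other genes of the streak and of axial progenitors were read from lists of genes known for these roles, beside the 0.281% of all tested genes that rose in edgeR, with a median log2 fold change of 0.08. DESeq2 and limma-voom called more, as they did over all genes (6.57% and 2.07% higher). The lists were chosen with earlier results of these data known, so their counts and medians are a description and no independent support. Some listed genes passed the low-count filter only through their reads in protrusions, among them Nodal. Of 16 other streak and mesendoderm regulators, 9 were tested and 1 rose, with a median log2 fold change of 1.07, while DESeq2 called 5 and limma-voom 1. It was Tbx6, which turns streak cells into paraxial mesoderm, at 188 ± 123 CPM in the protrusions and 0.583 ± 0.555 CPM in open neural tubes (SD, n = 4 each). Of 17 other axial progenitor genes, 11 were tested and 3 rose, with a median of 3.17: the caudal homeobox genes Cdx2 (6.56 ± 0.64) and Cdx1 (4.06 ± 0.67), and the RNA-binding protein Grsf1 (2.69 ± 0.48, log2 fold change ± SE). DESeq2 called 11 of this list and limma-voom 4. Of 14 streak signals and modulators, 8 were tested and 1, Nodal, rose (edgeR adjusted p = 0.0480) at 1.31, 32.8, 32.6 and 25.1 CPM in protrusions 1, 2, 3 and 4, against 0 in each open neural tube, with a list median of 2.75, also with Nodal at its lower bound, and DESeq2 called 5 and limma-voom 2. Of 8 genes downstream of T in the mouse embryo, 6 were tested and Tbx6 rose, with a median of 3.53, and DESeq2 called 5 and limma-voom 2. Dll1, a Notch ligand of presomitic mesoderm on that list, stood at 301 ± 136 CPM in the protrusions and 38.7 ± 28.9 CPM in open neural tubes (SD, n = 4 each) and did not pass (edgeR adjusted p = 0.0575). With the attached protrusions alone, 1 of 12 tested streak regulators, 5 of 17 axial progenitor genes, 3 of 11 signals and 2 of 8 genes downstream of T rose in edgeR. In that comparison 0.759% of all 11466 genes tested rose. The lists share genes, so Tbx6 counts in 2 of them and again among the paraxial mesoderm markers.

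The nearest paralogs of the 9 genes had few or no reads apart from Mesp2, and whether their tags could be counted was not tested. Of 7 paralogs 1 was tested and 0 passed in edgeR, while 1 had an unadjusted p under 0.05 and DESeq2 and limma-voom each called 1, Mesp2 in each case. Tbr1, Tbx19, Evx2, Nkx1-1 and Lhx5 each stood below 1 CPM in every library, and Gsc2 was at 0 in all 8.

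The genes whose profile over the 8 libraries was most like that of a member were found by the root mean square difference of mean-centred log2 CPM. For T they were Fgf4, an FGF of the streak, at 1.51, Defa-rs2, a defensin-related gene, at 1.57, and Nodal at 1.63. For 5730457N03Rik they were Epha5 at 0.63, Kif26b at 0.66 and Hoxb8 at 0.83, and Mesp1 stood close behind at 0.86. For Mesp1 they were Kcnf1 at 0.41, Ehbp1 at 0.42 and Serf2 at 0.42. T lay farther from both other tested members, at 1.97 each. These differences are a description over 8 libraries that share 2 groups.

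**Figure D4:**
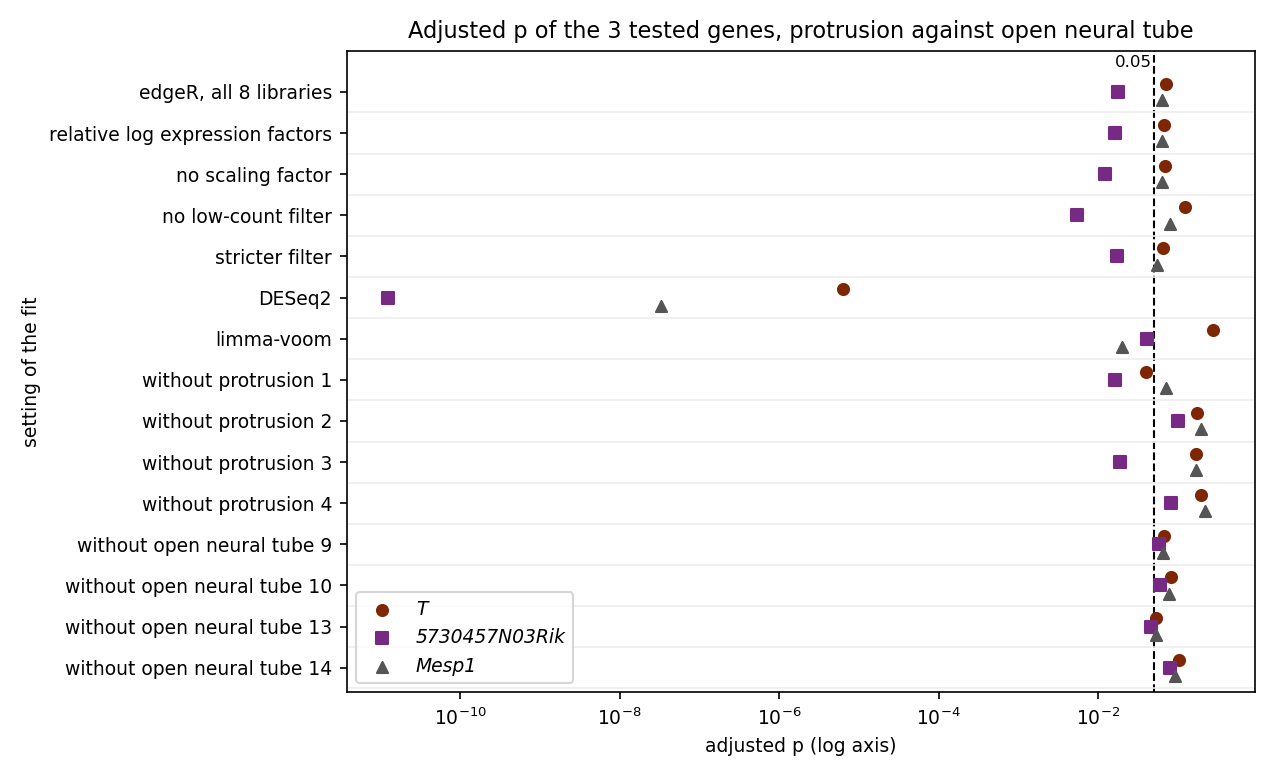
Adjusted p (horizontal log axis, dashed line at 0.05) of T (circles), 5730457N03Rik (squares) and Mesp1 (triangles) for protrusion against open neural tube under each setting of the fit (rows). In edgeR with all 8 libraries 5730457N03Rik lay at 0.0177, T at 0.0698 and Mesp1 at 0.0639.

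Markers of other tissues were set beside these results. Of 12 neural tube markers, the tissue named by the labels, all had reads and 0 passed in edgeR, while 6 had an unadjusted p under 0.05 and DESeq2 and limma-voom called 0. Their summed level was 520 to 1330 CPM in the protrusions and 246 to 1693 CPM in open neural tubes, with Sox2 at 158 to 583 CPM and 30.9 to 550 CPM. Ncam1 (log2 fold change 1.02, edgeR adjusted p = 0.214) and Sox3 (4.01, 0.219) had the smallest p. In the attached protrusions alone, where T and Mixl1 rose, 3 of the 12 neural markers fell in edgeR against the open neural tubes. The 3 markers were Sox1 (log2 fold change -3.78, adjusted p = 0.0350), Zic1 (-7.66, 0.0390) and Dbx1 (-8.59, 0.0476), factors of neural progenitors. Of all 11466 genes tested in that comparison, 85 fell. Of 8 paraxial mesoderm markers 6 were tested and Tbx6 rose, and the most abundant, Meox1, stood at 60.8 to 258 CPM in the protrusions and 17.9 to 184 CPM in open neural tubes. The summed level of these 8 was 375 to 768 CPM in the protrusions and 81.8 to 914 CPM in open neural tubes. Endothelial markers summed to 1.72 to 69.0 CPM in the protrusions and 28.1 to 314 CPM in open neural tubes (0 of 4 tested passed in edgeR, at an unadjusted p under 0.05, in DESeq2 or in limma-voom). Sox7 stood at 8.61 ± 16.5 CPM in the protrusions and 55.6 ± 57.6 CPM in open neural tubes, and Tek at 4.15 ± 7.37 and 34.8 ± 49.7 CPM (SD, n = 4 each). In the attached protrusions alone, 1 of 5 tested endothelial markers, Sox7, fell, beside the same 85 of 11466 genes. Sox7 stood at 0.430, 0.525 and 0.120 CPM in attached protrusions 2, 3 and 4, against 19.8, 29.6, 142 and 31.4 CPM in open neural tubes 9, 10, 13 and 14 (log2 fold change -7.34, edgeR adjusted p = 0.0177). Erythroid markers summed to 1.00 to 46.9 CPM and 1.06 to 1009 CPM and were led by Hba-x, with Hbb-y at 0 in all 8 libraries (0 of 1 tested passed in edgeR, 1 had an unadjusted p under 0.05, DESeq2 called 2 and limma-voom 0). Surface ectoderm markers summed to 142 to 1036 CPM and 58.4 to 324 CPM (0 of 7 tested passed in edgeR, 1 had an unadjusted p under 0.05, DESeq2 and limma-voom called 0), with Cdh1 at 871 CPM in protrusion 3 and 62.0 to 79.0 CPM in the other 3. Yolk sac endoderm markers summed to 1.47 to 3.87 CPM in the protrusions and 0 to 29.9 CPM in open neural tubes (0 of 1 tested passed in edgeR, at an unadjusted p under 0.05, in DESeq2 or in limma-voom). The part of these tissues in the levels of the 9 genes was not tested.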

How the data were processed

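SAGE libraries were made from laser-dissected mouse neural tube tissue with the SOLiD SAGE kit, per the labels' protocols, and the authors deposited whole-number read counts per gene symbol for each of 8 libraries. Build mm9 is named per the submitters' processing notes. The sources used here name no aligner, tag-to-gene rule or strand setting. CPM was computed here from the deposited counts and each library's total (5668054 to 16655583 reads).

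Protrusions (n = 4, numbered in listing order) were tested against open neural tubes (n = 4), and attached protrusions (n = 3) against the same open neural tubes, with edgeR 4.0.16 in R 4.3.3. The test was the quasi-likelihood test with TMM factors, filterByExpr at a minimum count of 10 and Benjamini-Hochberg adjustment over all genes tested, at a threshold of 0.05. It was also run on simulated counts, with results not given here. In the deposited data the common dispersion was 0.556, a biological coefficient of variation of 0.746. The 6 members below the filter were given an exact permutation test of CPM, 2-sided. Fold bounds use a floor of 3 reads per library. Thinning to equal depth used a fixed seed.

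The 9 members and all gene lists were chosen with earlier results of these data known. Named were all members, up to 4 genes past the threshold per list (or the 2 with the smallest p), the most abundant gene of each marker list and the 3 genes most like each tested member, on log2 CPM with a prior count of 2. All other genes named were picked after their values were seen. Alternatives were relative log expression factors, no scaling, no filter, a filter of 5 CPM in 4 libraries, DESeq2 1.42.0, limma-voom (limma 3.58.1) and leaving out each library. The same alternatives for attached protrusions, and other CPM scalings for the permutation tests, were chosen after seeing the data. Of the 9 members, 8 matched a RefSeq promoter, and Mixl1 did not.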

Additional observations from a re-analysis of the deposited data

Results flagged for a closer look

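In 13 groups of 4 libraries checked for a library far from the others, 3 were singled out, and in all 3 the other libraries were at 0. Chance singles out about 1 in 20 groups of continuous values, a rate that does not apply to such counts, so 1 read was enough. Lhx1 stood at 9.43 CPM (157 reads) in open neural tube 13, with 0 in the other 3 open neural tubes. Mesp1 stood at 0.176 CPM in open neural tube 10, which is 1 read, with 0 in the other 3. Gsc stood at 0.0875 CPM in protrusion 3, also 1 read, with 0 in the other 3 protrusions.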

How the results depend on the processing

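For protrusions against open neural tubes, 67 genes passed in edgeR, 1511 in DESeq2 and 389 in limma-voom, and 1 to 172 when 1 library was left out, fewest without open neural tube 9 and most without protrusion 1. Of the 9 members 1 passed in edgeR, 2 without a low-count filter, 5 in DESeq2, 2 in limma-voom, and 0 to 3 when 1 library was left out. For attached protrusions, 172 genes passed in edgeR, 1537 in DESeq2, 921 in limma-voom, and 10 to 211 when 1 library was left out. Of the members 3 passed, 1 with the stricter filter, which removed Mixl1 and 5730457N03Rik, 5 in DESeq2, and 0 to 3 when 1 library was left out. The stricter filter asks for 5 CPM in 4 libraries, and only 3 are attached protrusions. A gene near 0 in every open neural tube therefore could not pass it, and this setting does not test such genes. Without scaling factors, 128 genes were higher and 83 lower in attached protrusions, against 87 and 85 with them. Log2 fold changes under all alternatives were compared for members with a value in the main edgeR fit. These were T, 5730457N03Rik and Mesp1, and in attached protrusions also Mixl1. Of their log2 fold changes, 0 changed sign, 65 kept their side of the threshold, 20 lost it and 6 gained it. The causes of the other differences were not tested. No paired analysis was made. Protrusion numbers follow listing order, and the labels used here match no protrusion to an open neural tube. Eomes, Evx1 and Gsc stood at or near 3 reads, and the parts of depth and of their tags in this were not tested.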
